A study of Mus musculus with 22 samples.

Results

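The 7 genes described here encode antibody chains and proteins that serve antibody secretion: the light chain constant regions Igkc and Iglc2, the heavy chain constant regions Igha and Ighg2b, the joining chain Jchain, and the endoplasmic reticulum proteins Mzb1 and Derl3. They were chosen by symbol as genes typical of antibody-secreting plasma cells, and all 7 were present among the 52526 distinct gene symbols listed for each mouse. Values were CPM, read counts scaled to the size of each library, in which every value below 1 CPM had been raised to 1, called the floor here. Of the 7 genes, 6 lay above the floor in at least 5 mice and could be tested, and Derl3 did not.

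The study profiled the fourth mammary fat pad on the left side of 22 female C57BL/6J mice aged 7 to 8 weeks by 3′-end RNA sequencing, 24 h after all of them had received EO771 cells, a syngeneic mammary cancer line that expressed luciferase. For 2 weeks beforehand the wheel mice had a running wheel mounted on a hub and the control mice had the hub alone. Liposomes were injected 24 h before engraftment and again at engraftment, and held either clodronate, which kills phagocytes that take the liposomes up, or phosphate-buffered saline (PBS). This gave 6 control PBS, 6 wheel PBS, 5 control clodronate and 5 wheel clodronate mice, each a separate animal. All 22 mice carried the same experiment number, so no batch could be compared. The tissue held host cells and the injected cells together.

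B cells carry antibody on their surface, and plasma cells, into which activated B cells differentiate, secrete it in bulk through an expanded endoplasmic reticulum. Each antibody pairs a heavy chain, whose constant region sets its class, with a kappa or lambda light chain, and naive B cells carry the IgM and IgD classes encoded by Ighm and Ighd. In the mammary gland, plasma cells secreting IgA accumulate around lactation, and the fourth fat pad also holds the inguinal lymph node, a site rich in B and T cells. Whether the node was removed at dissection is not given in the sources used here.

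Libraries held 13256467 to 20484578 reads, with a median of 16293026, so that the floor stood for at most 13 to 20 reads of a gene. Being at the floor does not show that a transcript was absent. Reads assigned to genes made up 57.2% to 64.5% of each library. Exact Clopper-Pearson intervals at 95% given here cover counting error only, since reads without molecular identifiers are not independent molecules.

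Of the 22 libraries, 5 stood apart from the rest by their lymphocyte genes: control PBS mouse 2, wheel PBS mouse 3 and wheel clodronate mice 3, 4 and 5. Their T cell score, the mean of log2(CPM + 1) over 15 T cell genes, was 4.41, 4.42, 5.41, 5.56 and 4.82 in that order, against 1.12 to 1.74 in the other 17 mice. All 15 T cell genes lay above the floor in each of the 5 libraries, summing to 369 to 830 CPM there and to 6.20 to 54.2 CPM in the other mice. All 13 mature B cell genes lay above the floor in each of the 5 libraries and at most 4 of them did in any other mouse. The B cell genes summed to 343, 378, 988, 1082 and 660 CPM in the 5 libraries and to between 0 and 8.69 CPM elsewhere, counting genes at the floor as 0. Ms4a1, which encodes the B cell surface protein CD20, had the highest mean of that list, 22.4 CPM over the 22 mice. Cxcl13, a chemokine of lymph node follicles, reached 22.5 to 92.2 CPM in the 5 libraries and at most 2.19 CPM elsewhere. Of the 4 other lymph node stroma genes, Chst4 exceeded the floor in 4 of the 5 libraries, at up to 9.76 CPM, and in none of the 17 others, and Madcam1 in 2 of the 5 and 1 of the 17. Ccl19 and Ccl21a were at the floor in all 22 mice, and whether reads of these chemokines were lost to near copies was not tested. The 5 libraries were 1 of 6 control PBS, 1 of 6 wheel PBS, none of the control clodronate and 3 of 5 wheel clodronate mice, so each comparison below is given with and without them. The part that lymph node tissue in the dissected pad had in the results was not tested.

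The mean of log2(CPM + 1) over 10 plasma cell identity genes was 3.69 to 4.28 in the 5 libraries and 2.57 to 3.39 elsewhere. Tnfrsf17, the receptor BCMA that sustains plasma cells, exceeded the floor in 3 of 22 mice and peaked at 1.64 CPM. Sdc1, the plasma cell surface protein CD138 that epithelial cells also carry, spanned 10.4 to 33.8 CPM in the 5 libraries and 10.3 to 114 CPM in the other 17 mice. Prdm1 and Xbp1, transcription factors of plasma cell differentiation, were at 4.58 to 16.0 CPM and 62.0 to 88.1 CPM in the 5 libraries, against 2.25 to 37.0 CPM and 63.3 to 135 CPM elsewhere. Irf4, a transcription factor of both stages, was at 8.16 to 24.3 CPM against 1.00 to 25.8 CPM, and Txndc5, a protein disulphide isomerase, at 16.8 to 47.2 CPM against 10.4 to 40.4 CPM. Slamf7 was at 16.5 to 27.0 CPM against 1.00 to 31.6 CPM, and Eaf2 was above the floor in 2 of the 5 libraries and 3 of the 17 others. Pou2af1 and Tnfrsf13b, which B cells use too, were at 14.5 to 51.8 CPM and 12.9 to 47.6 CPM in the 5 libraries against at most 2.19 and 4.69 CPM elsewhere. The 7 genes are called immunoglobulin and secretory genes below.

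Igkc, the constant region of kappa light chains, was the most abundant of the 7 genes in most mice and the only one above the floor in all 22. In control PBS mice it ranged from 5.29 CPM through a median of 12.7 to 439 CPM, and in wheel PBS mice from 1.33 through 8.45 to 341 CPM. The control clodronate mice had 4.59, 3.54, 33.7, 10.1 and 17.2 CPM of Igkc, and the wheel clodronate mice 6.20, 29.4, 1043, 956 and 635 CPM. The 5 libraries rich in lymphocyte genes held the 5 highest values, and the 2 other wheel clodronate mice lay within the control clodronate range. The next value after the 5 was 66.8 CPM in control PBS mouse 3 (1020 reads, interval 62.8 to 71.0 CPM), in which Ighm reached 107 CPM and Jchain 5.70 CPM while Mzb1 and Igha were at the floor. Because bulk tissue was measured, fewer cells of a type and less RNA per cell cannot be told apart in any of these values.

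Iglc2, a constant region of lambda light chains, was above the floor in 8 mice. It reached 16.8 CPM in control PBS mouse 2, 31.4 CPM in wheel PBS mouse 3, and 66.6, 59.8 and 38.8 CPM in wheel clodronate mice 3, 4 and 5. The 3 other detections were 3.34, 1.53 and 1.28 CPM, in control PBS mouse 5, wheel PBS mouse 6 and control clodronate mouse 5. Iglc3, a neighbouring lambda gene, gave 20.7, 36.9, 71.5, 87.0 and 53.1 CPM in the same 5 libraries, and Iglc1 ranged from 5.86 to 42.7 CPM there.

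Values of Iglc2 and Iglc3 were uncertain because the genes are near copies at the end that 3′ sequencing reads, and their reads may have been split or dropped. Over the last 400 transcript bases Iglc2 matched Iglc3 at 95.2% identity, and no other of the 7 genes but Mzb1 had a copy at 90% identity or more. The last 90 coding bases of the 3 lambda genes are shown for this likeness, from GENCODE transcripts on GRCm38, with capitals at the 29 positions where the 3 are not all alike. They lie on the minus strand in the constant region exon, at chr16:19061755-19061844 for Iglc1, chr16:19198539-19198628 for Iglc2 and chr16:19065368-19065457 for Iglc3.
Iglc1: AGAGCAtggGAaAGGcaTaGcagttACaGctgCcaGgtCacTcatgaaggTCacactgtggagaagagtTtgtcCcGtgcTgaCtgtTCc
Iglc2: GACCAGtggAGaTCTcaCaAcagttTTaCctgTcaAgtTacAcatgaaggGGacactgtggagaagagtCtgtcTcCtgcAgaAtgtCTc
Iglc3: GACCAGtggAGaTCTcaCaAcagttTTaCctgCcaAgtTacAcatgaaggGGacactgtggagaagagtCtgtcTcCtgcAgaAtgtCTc
Iglc2 and Iglc3 differed at 1 of the 90 bases (98.9% identical), whereas Iglc1 differed from Iglc2 at 29 (67.8%) and from Iglc3 at 28 (68.9%). Igkc (chr6:70726435-70726966, plus strand) had no such copy, but overlapped the long noncoding RNA Gm30211 on the same strand, which reached at most 6.74 CPM.

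Igha, the heavy chain constant region of IgA (chr12:113254830-113260236, minus strand), was above the floor in 3 of the 5 libraries and 10 of the 17 other mice. Control PBS mice ranged from the floor through a median of 6.21 to 9.14 CPM, and wheel PBS mice from the floor, which was also their median, to 6.41 CPM. The control clodronate mice had 1.00, 4.88, 1.74, 3.65 and 2.19 CPM of Igha, and the wheel clodronate mice 1.00, 2.18, 6.20, 17.6 and 1.00 CPM. Wheel PBS mouse 3 and wheel clodronate mouse 5 were at the floor for Igha although both were rich in B cell genes, while the 2 highest values, 17.6 and 9.14 CPM, were in wheel clodronate mouse 4 and control PBS mouse 2, also among the 5. All 4 groups overlapped.

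Ighg2b, the heavy chain constant region of IgG2b (chr12:113302965-113307933, minus strand), was above the floor in the 5 libraries and in no other mouse. It reached 27.1 CPM in control PBS mouse 2, 4.51 CPM in wheel PBS mouse 3, and 27.3, 22.1 and 27.1 CPM in wheel clodronate mice 3, 4 and 5. Wheel PBS mouse 3 (60 reads, interval 3.44 to 5.80 CPM) was the lowest of these, with Igkc at 341 CPM against 439 CPM in control PBS mouse 2. Ighg2c, another IgG class, showed the same gap, with 4.51 CPM in wheel PBS mouse 3 against 16.9 to 55.8 CPM in the 4 others.

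Ighm, the heavy chain constant region of IgM, is not among the 7 genes but was above the floor in every mouse and is given as their reference. It reached 172, 203, 456, 455 and 299 CPM in the 5 libraries and 12.8 to 107 CPM in the other 17 mice. Ighd, the IgD class, was 47.0, 76.0, 171, 159 and 113 CPM in the 5 libraries and at most 3.07 CPM elsewhere, and Ighe, the IgE class, was at the floor in all 22 mice.

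Jchain, which joins IgA and IgM into polymers (chr5:88519809-88527891, minus strand), exceeded the floor in 8 mice. It reached 13.8 CPM in control PBS mouse 2, 2.33 CPM in wheel PBS mouse 3, and 23.5, 17.8 and 16.6 CPM in wheel clodronate mice 3, 4 and 5. Control PBS mouse 3 followed with 5.70 CPM (87 reads, interval 4.56 to 7.03 CPM), above wheel PBS mouse 3, so that Jchain did not separate the 5 libraries from the rest. The 2 other detections were 1.02 CPM in control PBS mouse 1 and 1.79 CPM in wheel clodronate mouse 2.

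Mzb1, a chaperone of the endoplasmic reticulum that aids antibody assembly, was above the floor in the 5 libraries and in no other mouse. It stood at 10.7 CPM in control PBS mouse 2, 13.9 CPM in wheel PBS mouse 3, and 39.2, 39.7 and 24.4 CPM in wheel clodronate mice 3, 4 and 5. The sequence of its 3′ end is shared in full with an entry annotated over it on the same strand as SPATA24. Reads could thus have been shared, and the values of Mzb1 were uncertain. The deposited values list no SPATA24 but a Spata24, at 1.00 to 3.76 CPM in the 5 libraries and 1.09 to 8.72 CPM in the 17 others. Whether both symbols name the same gene was not tested, so these values do not show whether reads were shared. For Mzb1 and Ighg2b, the mice in which the gene was high were the same 5 that let it pass the filter for testing.

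Derl3, which helps to return misfolded proteins from the endoplasmic reticulum for degradation, was at or near the floor throughout. It exceeded the floor in 3 mice only, at 1.11 CPM in control PBS mouse 6 and 1.28 and 1.82 CPM in wheel clodronate mice 3 and 4. The highest of these stood for 30 reads, with an interval of 1.23 to 2.60 CPM.

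**Figure D1:**
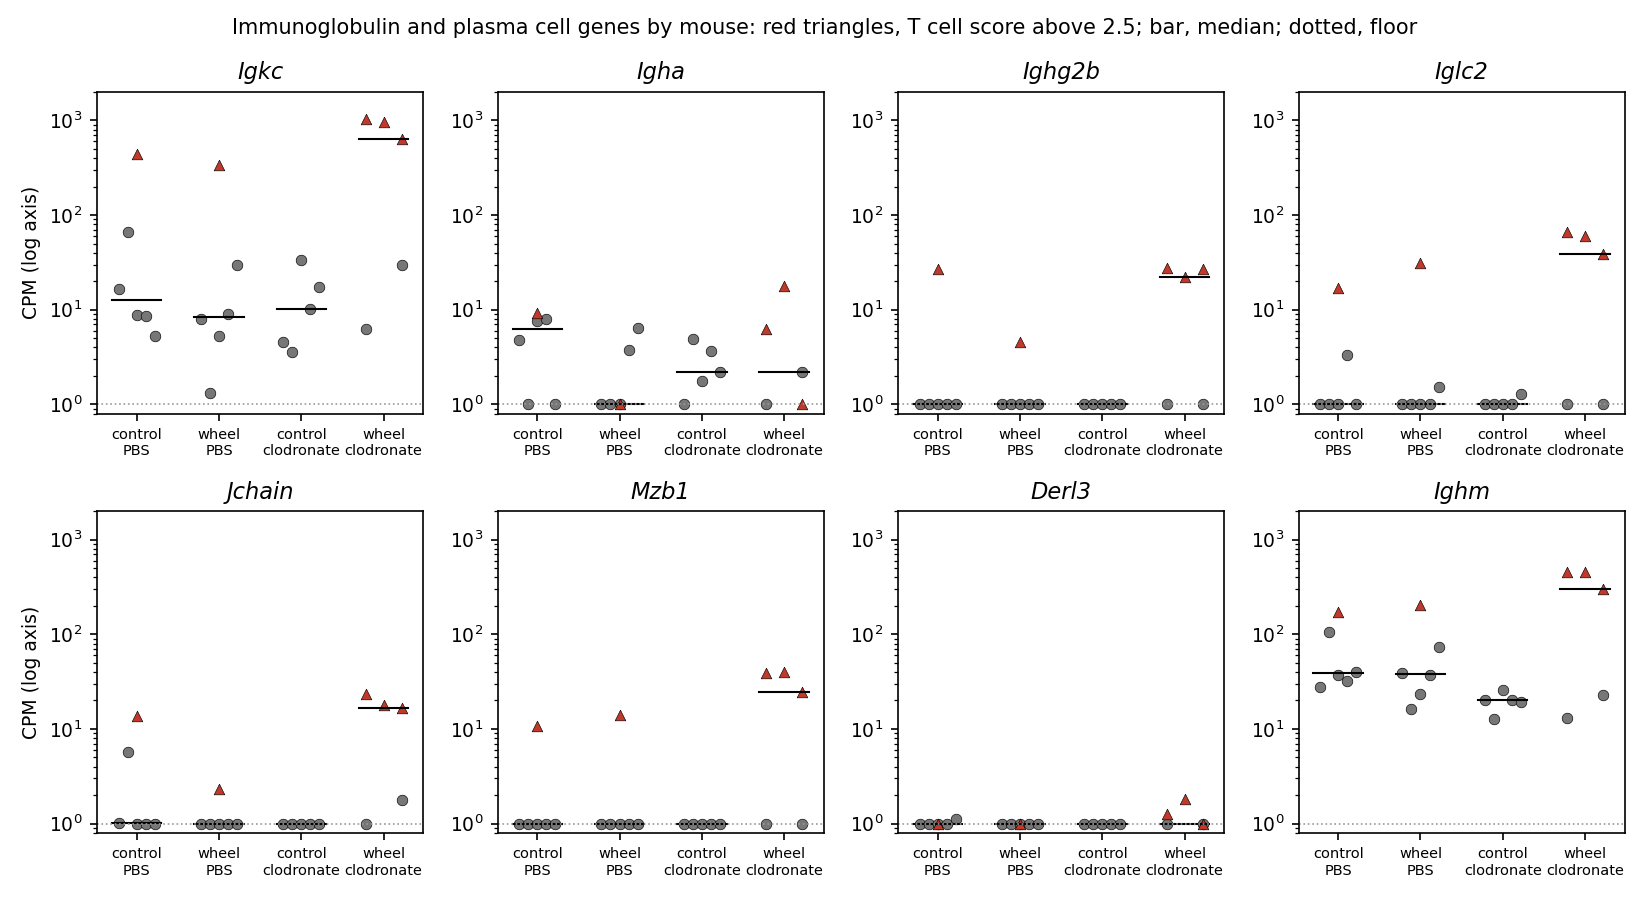
CPM on a log axis of the 7 immunoglobulin and secretory genes and of Ighm in each of the 22 mice by group, with red triangles for the 5 libraries with a T cell score above 2.5, grey circles for the other 17, bars for medians and a dotted line for the floor. Igkc spans 1.33 to 1043 CPM with the triangles on top, whereas triangles and circles mix for Igha.

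RefSeq promoter windows around the gene start on GRCm38.p6 were found for 2 of the 7 genes, Jchain and Derl3. They were searched on both strands for the octamer ATGCAAAT, an element of immunoglobulin promoters, and for the endoplasmic reticulum stress element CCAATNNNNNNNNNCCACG, known from chaperone genes. The octamer was in 1.74% of 32851 promoters and in neither of the 2. The stress element was in 39 promoters (0.119%), among them Derl3 and 4 of the 19 promoters found for a list of 20 secretory machinery genes, those of Creld2, Hsp90b1, Hspa5 and Pdia6. The stretch of the Derl3 promoter around it, at chr10:75893212-75893290 on the plus strand and 186 to 108 bases before the start, is shown with the fixed letters of the match, on the reverse strand, in capitals.
Derl3: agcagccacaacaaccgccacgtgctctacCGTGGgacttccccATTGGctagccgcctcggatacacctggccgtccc
A match is a description of these letters, not evidence of binding, and no match says only that the letters are not in this window. While Derl3 lay at or near the floor, Hspa5 ranged from 186 to 430 CPM and Hsp90b1 from 140 to 306 CPM over the 22 mice.

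The class makeup of the heavy chain transcripts varied among the 5 libraries. In 3′ sequencing a transcript is read near its end, so shares of reads were taken without division by length. Among heavy chain reads Ighm made up 56.5%, 69.7%, 64.3%, 63.2% and 64.8% in control PBS mouse 2, wheel PBS mouse 3 and wheel clodronate mice 3, 4 and 5. The IgG genes made up 25.1% (interval 23.9% to 26.3%) in control PBS mouse 2 and 4.13% (3.53% to 4.81%) in wheel PBS mouse 3, with 10.8%, 12.3% and 10.8% in the wheel clodronate mice. The 2 PBS libraries thus lay on either side of the 3 wheel clodronate ones in their IgG share.

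Igha made up 3.00% of heavy chain reads in control PBS mouse 2, 0.873% in wheel clodronate mouse 3 and 2.45% in mouse 4, and was at the floor in the 2 others. Iglc1, Iglc2 and Iglc3 together made up 10.7%, 17.8%, 14.8%, 15.6% and 16.1% of light chain reads, lowest in control PBS mouse 2. That mouse also had the highest Jchain share of the reads of Jchain and Mzb1, 56.4% (51.3% to 61.3%), against 14.4% (9.96% to 19.7%) in wheel PBS mouse 3 and 37.4%, 30.9% and 40.4% in the wheel clodronate mice. Control PBS mouse 2 therefore had more IgG and Jchain for its IgM and Mzb1 than the other 4, and wheel PBS mouse 3 less. Of the reads of Ighm and Igkc together, Ighm took 28.1% to 37.3% in the 5 libraries and 43.4% to 92.5% in the other 17 mice, where Igkc stood lower relative to Ighm.

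**Figure D2:**
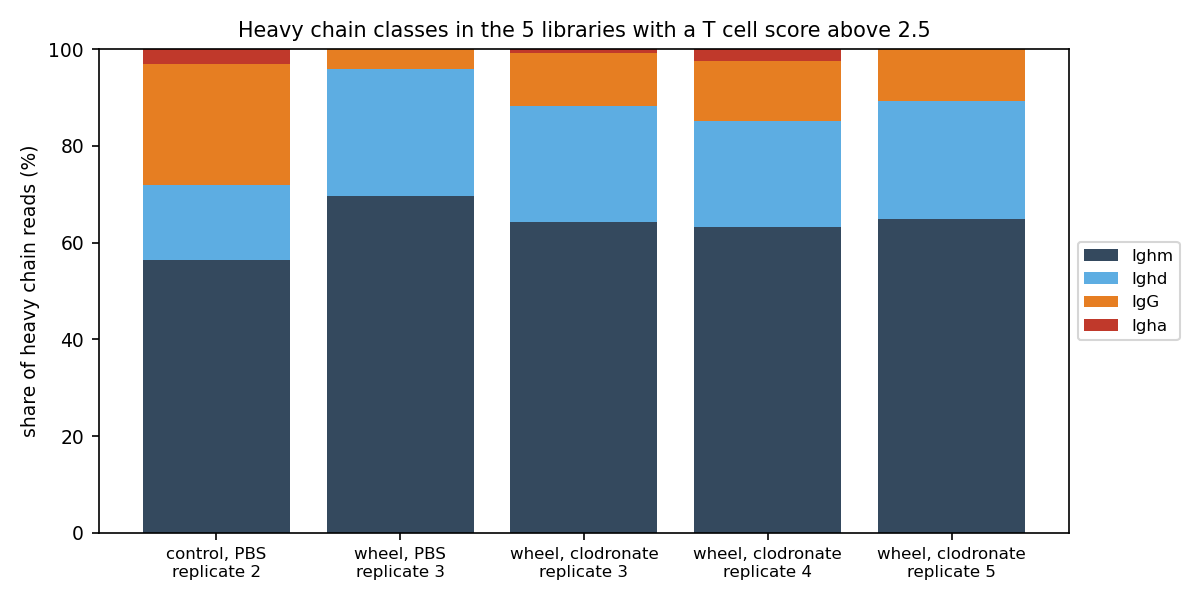
Stacked share, in percent, of heavy chain reads by antibody class in each of the 5 libraries with a T cell score above 2.5. The IgG share is highest in control PBS mouse 2 (25.1%) and lowest in wheel PBS mouse 3 (4.13%).

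Across mice, Igkc and Mzb1 lay high where the mature B cell score, the mean of log2(CPM + 1) over the 13 B cell genes, was high. That score was 4.36 to 6.06 in the 5 libraries and 1.00 to 1.19 in the other 17. The mice thus fell into separate clusters, and no correlation over all 22 was taken as a result. Igha had values above the floor at either end of the score.

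**Figure D3:**
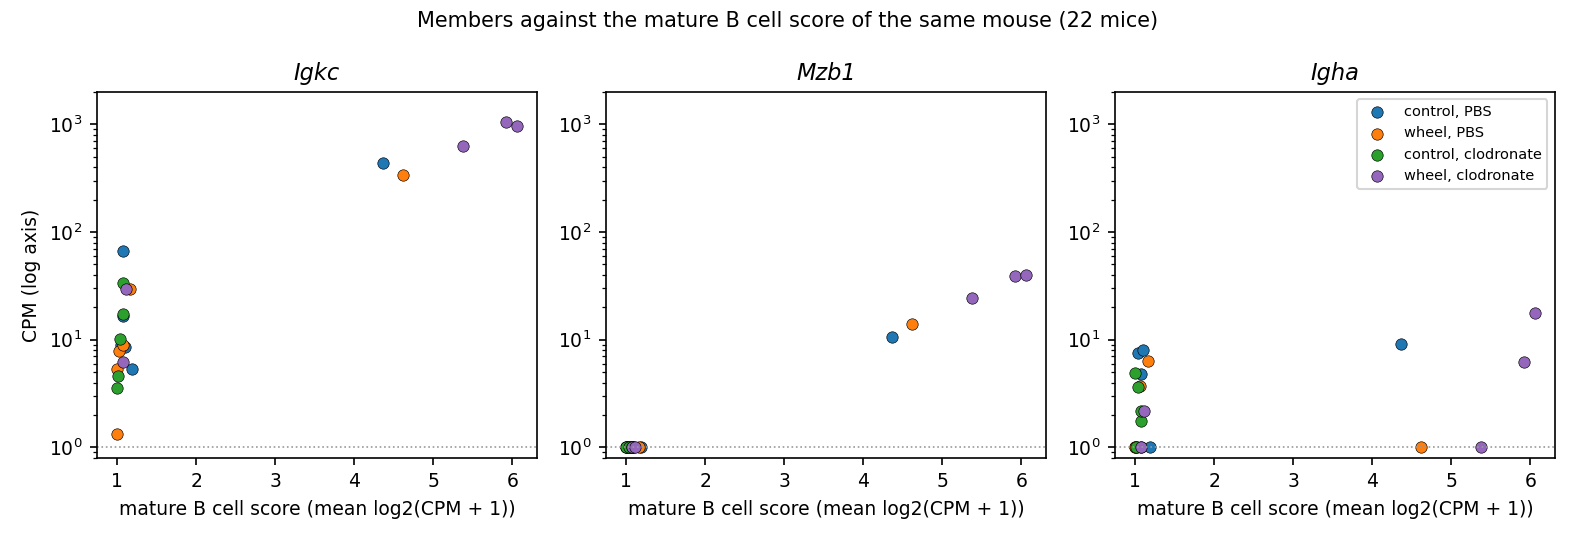
CPM on a log axis of Igkc, Mzb1 and Igha against the mature B cell score of the same mouse, 1 point per mouse coloured by group, with a dotted line for the floor. The 5 points with a score of 4.36 or more hold every Mzb1 value above the floor, while Igha is above the floor in 10 of the 17 other mice.

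Genes were compared between groups with limma on log2(CPM + 1) over 15138 genes, with p-values adjusted by the method of Benjamini and Hochberg and a threshold of 0.05. The comparisons shared groups, so their results were not independent of each other. Changes are differences of mean log2(CPM + 1), which understate the change of genes near the floor, and Ighg2b, Iglc2, Jchain and Mzb1 passed the filter only through the 5 libraries in which they were high. Where a group held more of those libraries, these 4 genes had to be higher in it, and counts over the 6 tested genes are given as a description.

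The first comparison asked how wheel access related to the mammary tissue of mice given PBS liposomes. With each group holding 1 library rich in lymphocyte genes, the immunoglobulin and secretory genes did not separate wheel from control mice. Igkc differed by a log2 change of -0.75 with an interval of -3.33 to 1.84 (adjusted p = 0.991), and Igha by -0.84 with an interval of -1.95 to 0.27 (adjusted p = 0.988). For Ighg2b, Iglc2, Jchain and Mzb1 the changes were -0.39, 0.014, -0.65 and 0.059, each with an interval that included 0. In limma, 0 of the 6 tested genes were called, as were 0% of all genes, and 0 of the 6 and 744 of all 15138 genes had an unadjusted p under 0.05.

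Several of these directions hung on single mice. Without control PBS mouse 2, Igkc stood at 0.068, Ighg2b at 0.24, Jchain at -0.23 and Ighm at 0.077, where Ighm had been at -0.25 with all mice. Without wheel PBS mouse 3, Iglc2 stood at -0.64 and Mzb1 at -0.42, and without wheel PBS mouse 2 Ighm stood at 0.032. Leaving out any of control PBS mice 1, 3, 4 and 6 put Iglc2 at -0.13 and Mzb1 at -0.026, and leaving out control PBS mouse 5 put Mzb1 at -0.026. With the 5 libraries left out, Igkc and Igha alone of the 7 genes passed the filter, at -0.83 and -0.54 (adjusted p = 1.00 for both), and limma called 0 of 14494 genes, with 571 at an unadjusted p under 0.05.

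The second comparison set wheel against control mice after clodronate liposomes, where 3 of 5 wheel mice and none of the control mice were libraries rich in lymphocyte genes. Igkc was higher in the wheel mice by a log2 change of 3.92, a fold of 15.1, with an interval of 1.08 to 6.75 (adjusted p = 0.281). Iglc2 differed by 2.83 (0.89 to 4.76, adjusted p = 0.265), and Igha by 0.37 (-0.85 to 1.58, adjusted p = 0.890). Wheel clodronate mice 3, 4 and 5 exceeded every control mouse for Igkc and Iglc2, and the 2 others did not. The share of reads assigned to genes also differed between these groups, at 57.2% to 58.5% in wheel and 58.7% to 63.0% in control mice, and its part in these changes was not tested.

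Control clodronate mice were all at the floor for Ighg2b, Jchain and Mzb1, so the size of those changes depended on the pseudocount. Jchain differed by 2.09 (0.84 to 3.34, adjusted p = 0.238), with 4 of 5 wheel mice above the floor, and by 1.24 or 2.63 with a pseudocount of 5 or 0.1. Ighg2b differed by 2.23 (adjusted p = 0.266) and by 1.40 or 2.72 with those pseudocounts. Mzb1 differed by 2.47 (adjusted p = 0.260) and by 1.61 or 2.96. In limma, 0 of the 6 tested genes were called, against 0.00661% of all genes, while 5 of the 6 and 1579 of all 15138 genes (10.4%) had an unadjusted p under 0.05. The 1 gene called was Gm7536, named after its value was seen, at 0.69 (adjusted p = 0.0129).

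That outcome also turned on single mice. Without wheel clodronate mouse 1, limma called Jchain (2.62, adjusted p = 0.0393), Mzb1 (3.09, adjusted p = 0.0499) and Ighm (3.28, adjusted p = 0.0469). Without wheel clodronate mouse 2 it called Iglc2 (3.54, adjusted p = 0.0492), Jchain (2.49, adjusted p = 0.0437) and Mzb1 (3.09, adjusted p = 0.0430). Iglc2, Jchain and Mzb1 had passed the filter through the 5 libraries, and 3 of the 4 wheel mice left in either fit were among these. The 2 mice left out were the wheel clodronate mice without high lymphocyte genes, and leaving either out raised the count of all genes called to 118 or 236. With each of the 10 clodronate mice left out in turn, the adjusted p of Jchain spanned 0.0393 to 0.670, that of Mzb1 0.0430 to 0.670, that of Iglc2 0.0492 to 0.670 and that of Ighm 0.0469 to 0.670. Leaving out wheel clodronate mouse 5, or any of control clodronate mice 1 to 4, left 0 genes called. Without wheel clodronate mouse 4, Igha stood at -0.15.

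Without the 5 libraries, 2 wheel clodronate mice remained. Igkc then differed between wheel and control clodronate mice by 0.40 (-1.61 to 2.41, adjusted p = 0.984), Igha by -0.45 (-1.80 to 0.91, adjusted p = 0.981) and Ighm by -0.16, against 2.51 with all mice. Limma called 0 of 14494 genes, with 853 at an unadjusted p under 0.05.

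The third comparison asked how clodronate related to the tissue of control mice. Igkc differed between clodronate and PBS by a log2 change of -1.21 with a standard error of 1.31 (adjusted p = 0.879), and Igha by -0.58 with an interval of -1.75 to 0.59 (adjusted p = 0.865). The changes of Ighg2b, Iglc2, Jchain and Mzb1 were -0.64, -0.67, -0.77 and -0.42, all with intervals that included 0. Without control PBS mouse 2, Igkc stood at -0.40, Iglc2 at -0.19, Jchain at -0.35 and Igha at -0.38, while Ighg2b and Mzb1 were at the floor in both groups and have no fold. Igha also stood at -0.38 without control clodronate mouse 1. In limma, 0 of the 6 tested genes were called, as were 0% of all genes, and 0 of the 6 and 1058 of 15138 genes had an unadjusted p under 0.05. The count of all genes called was 38 without control clodronate mouse 1, and 1 without control PBS mouse 5 or without control PBS mouse 6.

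Ighm levels separated these groups. Its control clodronate values were 20.4, 12.8, 25.8, 20.3 and 19.2 CPM, and its control PBS values ranged from 28.1 through a median of 38.6 to 172 CPM. The groups did not overlap, yet Ighm was not called, at -1.45 with an interval of -3.07 to 0.18 (adjusted p = 0.738), in a comparison that called 0% of genes and in which 96 of the 15138 genes (0.634%) did not overlap between these groups. Without the 5 libraries Ighm differed by -1.12 (-1.89 to -0.34, adjusted p = 0.703), Igkc by -0.40 (adjusted p = 0.923) and Igha by -0.38 (adjusted p = 0.892). Limma then called 0 of 14494 genes, with 948 at an unadjusted p under 0.05.

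The fourth comparison asked the same of wheel mice, with 3 of 5 clodronate and 1 of 6 PBS libraries rich in lymphocyte genes. Igkc was higher after clodronate by 3.45 (0.74 to 6.16, adjusted p = 0.308), Jchain by 1.97 (adjusted p = 0.207) and Igha by 0.62 (adjusted p = 0.735). The changes of Ighg2b, Iglc2 and Mzb1 were 1.99, 2.14 and 1.99, with adjusted p-values of 0.275, 0.356 and 0.295. Reads assigned to genes made up 57.2% to 58.5% of the clodronate and 58.3% to 63.7% of the PBS libraries here, and the part of this in the changes was not tested. In limma, 0 of the 6 tested genes were called, against 0.00661% of all genes, and 5 of the 6 and 1759 of 15138 genes (11.6%) had an unadjusted p under 0.05. With a pseudocount of 5, Jchain stood at 1.19, Ighg2b at 1.29 and Igha at 0.37, and Igha stood at 0.11 without wheel clodronate mouse 4. The 1 gene called was again Gm7536, at 0.67 (adjusted p = 0.00922). The count of all genes called was 28 without wheel clodronate mouse 1, 51 without wheel clodronate mouse 2 and 0 without wheel clodronate mouse 5. When the 5 libraries were left out, Igkc stood at 0.83 (adjusted p = 0.839), Igha at -0.29 (adjusted p = 0.920) and Ighm at -0.92 (adjusted p = 0.612), against 1.32 for Ighm with all mice, and 0 of 14494 genes were called in limma, with 1274 at an unadjusted p under 0.05.

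The interaction tested whether the difference between wheel and control mice itself differed between liposomes. It was 4.66 for Igkc with an interval of 0.83 to 8.50 (adjusted p = 0.6246), 2.74 for Jchain (1.05 to 4.43, adjusted p = 0.591) and 1.20 for Igha (-0.44 to 2.85, adjusted p = 0.757). For Ighg2b, Iglc2 and Mzb1 it was 2.63, 2.81 and 2.41. With a pseudocount of 5 it was 1.61 for Jchain, 1.70 for Ighg2b, 1.57 for Mzb1 and 0.72 for Igha, and without wheel clodronate mouse 4 it was 0.69 for Igha. In limma, 0 of the 6 tested genes were called, as were 0% of all genes, and 5 of the 6 and 1147 of 15138 genes (7.58%) had an unadjusted p under 0.05. Rescaling the libraries to 1 upper quartile moved the median of all genes by -0.10 here. The shift was 0.083 in wheel against control PBS mice and 0.098 in clodronate against PBS in control mice. It was -0.017 in wheel against control mice after clodronate and -0.0029 in clodronate against PBS in wheel mice. In the 17 mice left without the 5 libraries, the interaction was 1.22 for Igkc (-1.30 to 3.75, adjusted p = 0.999) and 0.090 for Igha (adjusted p = 0.999), and limma called 0 of 14494 genes, with 545 at an unadjusted p under 0.05.

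**Figure D4:**
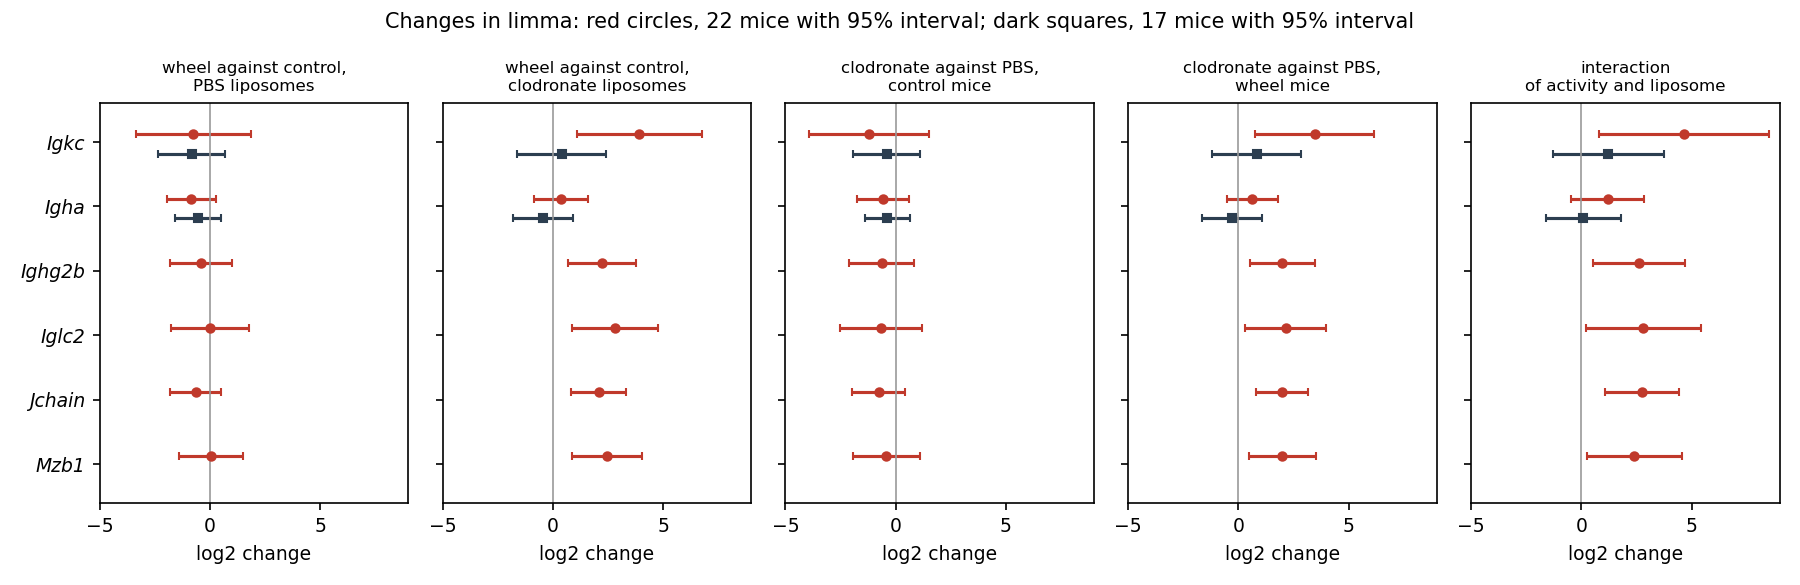
Log2 changes of the 6 tested genes in the 5 comparisons, with red circles and 95% intervals for all 22 mice and dark squares and 95% intervals for the 17 mice without the libraries rich in lymphocyte genes, where only Igkc and Igha could be tested. In wheel against control mice after clodronate, Igkc moves from 3.92 to 0.40 when those libraries are left out.

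Other gene lists were set beside the 7 genes in wheel against control mice after clodronate, where the median of all genes was 0.0045 and limma called no gene of any list. Of all genes tested, 50.6% were positive and 10.4% had an unadjusted p under 0.05. All 13 mature B cell genes were higher in wheel mice, with a median of 3.08 and 13 at an unadjusted p under 0.05, and so were all 15 T cell genes, with a median of 2.41 and 15 at that level. Cd79b and Ms4a1, parts of the B cell surface, differed by 3.50 and 3.44. The 6 other immunoglobulin constant regions tested had a median of 2.41 with all 6 positive, and Cxcl13, the only lymph node stroma gene tested, differed by 2.98. Like Ighg2b, Iglc2, Jchain and Mzb1, many of these genes passed the filter only through the 5 libraries and so had to differ. Without those, 1 of the 13 B cell genes, 10 of the 15 T cell genes, 1 of the 6 constant regions and 0 lymph node stroma genes passed.

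Lists closer to secretion gave smaller medians. Of 9 plasma cell identity genes 7 were positive, with a median of 0.27, and 4 had an unadjusted p under 0.05, among them Pou2af1 at 2.60 and Tnfrsf13b at 2.31, while Xbp1 differed by -0.25 and Sdc1 by -0.67. Of 20 secretory machinery genes 11 were positive, with a median of 0.041, 1 at an unadjusted p under 0.05, shares near or below those of all genes, Hspa5 at -0.049 and Hsp90b1 at 0.068. Of 7 genes of plasma cell homing and survival 6 were positive, with a median of 0.88, and Vcam1, an adhesion molecule, differed by 1.43. Leaving out the 5 libraries put the median of the 6 homing genes still tested at -0.087, with Vcam1 at 0.0030 and Itga4, a subunit of an integrin that binds Vcam1, at -1.55 (-2.54 to -0.57), against 0.80 with all mice, and neither was called. Pigr, which carries IgA and IgM across epithelia, and Il6 and Tnfsf13, which sustain plasma cells, were at the floor in all 22 mice.

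The remaining lists showed medians of -0.16 for 3 germinal centre genes, -0.069 for 6 immunoglobulin receptor and transport genes, 0.15 for 11 macrophage genes, -0.21 for 8 mammary epithelium genes, -0.21 for 6 adipocyte genes and -1.32 for 6 skeletal muscle genes. The last 4 of these turned when the 5 libraries were left out, to -0.55 for macrophage, 0.17 for mammary epithelium, 0.021 for adipocyte and 1.35 for skeletal muscle genes, with 2 wheel clodronate mice remaining. The germinal centre median was then -0.012 over 2 genes, that of the immunoglobulin receptor and transport genes -0.50 over 6, and the only B cell gene tested, Bank1, stood at -0.15. With those 5 left out, the secretory machinery median was -0.23, the plasma cell identity median 0.41 over 7 genes, the T cell median -0.010 over 10 genes and the median of all genes -0.046.

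In the other comparisons limma also called no gene of these lists. The lists given here were picked after their values were seen. Between clodronate and PBS in control mice, all 11 macrophage genes were negative, with a median of -0.36 and 2 at an unadjusted p under 0.05. All genes had a median of -0.10 there, with 34.6% positive and 6.99% at that level. The macrophage median was -0.31 when the 5 libraries were left out. In wheel mice the macrophage median was -0.17, with 4 of 11 positive, and -0.67 in the 17 mice. All 6 adipocyte genes were negative between clodronate and PBS in wheel mice, with a median of -0.48 and 3 at that level. Of all genes, 50.1% were positive and 11.6% were at that level there. The adipocyte median was -0.27 in the 17 mice. Between wheel and control PBS mice, Irf4 differed by 1.60 (0.75 to 2.46, adjusted p = 0.961), and by 1.63 in the 17 mice (adjusted p = 1.00). It was the highest of the 9 plasma cell identity genes tested there, of which 5 were positive, with a median of 0.0062. Sdc1, Slamf7, Eaf2 and Pou2af1 were negative, at -0.49, -0.24, -0.090 and -0.072. Of the 9, 1 had an unadjusted p under 0.05, against 4.91% of all genes. The median of this list was -0.13 over the 7 genes tested in the 17 mice.

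The genes most like each of the 7 in rank over mice were listed by Spearman's rho. The listing describes the highest among the genes compared, with many ties at the floor. Over 22 mice, only genes above the floor in at least 11 of them were compared. Genes seen in the 5 libraries alone, such as Ighg2b and Mzb1 themselves, were thus not among those compared. The highest of those compared were Fam107b (0.811), Sp4 (0.790) and Gm37010 (0.788) for Igkc. For Iglc2 they were Hipk1 (0.826), Sidt1 (0.823) and Ankrd44 (0.808). They were Icos (0.780), Ccl22 (0.778) and Gimap3 (0.773) for Ighg2b, and Cd7, Gimap3 and Il21r (0.783 each) for Mzb1. For Jchain they were Gm37010 (0.834), Ikzf1 (0.826) and Serpinb6b (0.811). All of these ranks share the 5 libraries in which the antibody genes were high.

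For Igha the listing gave Grpel2 (0.804), Dcun1d3 (0.658) and Chm (0.611), and for Derl3, above the floor in 3 mice, Nlrc4 (0.636), Ly6k (0.607) and Gpr137b (0.600). Over the 17 other mice, only genes above the floor in at least 9 of them were compared. The closest of those compared were Gpatch11 (0.762), Btaf1 (0.735) and Ankef1 (0.728) for Igkc, and Plekha8 (0.766), Dcun1d3 (0.754) and Add1 (0.698) for Igha. For Iglc2, above the floor in 3 of these 17 mice, they were Slc25a47 (0.669), Agtr1a (0.661) and Ces1f (0.661), and for Jchain, also above it in 3, Catsper2 (0.702), Tmem17 (0.680) and Sntb1 (0.678). No value is given for Ighg2b, Mzb1 and Derl3, which were above the floor in 0, 0 and 1 of these mice.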

How the data were processed

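Total RNA was sequenced with a 3′-end kit. The submitters' processing notes name STAR 2.5.3a and GRCm38. The deposited signal is CPM over all reads, unmapped and multimapping ones included, with values below 1 raised to 1 by the authors. CPM had been assumed when the tests were planned, and the planned test was kept. All values above the floor that were checked, which left out the largest, were whole reads within 0.01 read. Reads at the floor were lost, so no count test was run.

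A gene entered the test if 5 or more mice exceeded the floor. Groups were fitted in limma 3.58.1 (R 4.3.3) with a variance trend, tested on simulated data. Python 3.11.15, numpy 2.4.6, pandas 2.3.3, scipy 1.17.1 and blastn 2.17.0 served otherwise. Named were the 7 genes, up to 4 of the most abundant genes of each of 13 marker lists and the 3 most alike genes; other genes were named after their values were seen. Members and lists were chosen with earlier results of these data known. Alternatives were pseudocounts of 0.1 and 5, other filters, scaling, groups fitted and variance trend, a replicate block, and mice or libraries left out.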

Additional observations from a re-analysis of the deposited data

Results flagged for a closer look

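In a group of 5 or 6 mice, a mouse was marked where its distance from the nearest other was a large part of the whole range. Of 43 groups tested over 12 measures, 18 had such a mouse. Chance marks about 1 in 20 groups of untied values, a rate that does not hold here. In 11 of the 18 the nearest other mouse was at the floor, where any lone detection is marked, and the measures vary together. Values are log2(CPM + 1), on which the floor is 1.

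Control PBS mouse 2 stood above the rest of its group for Ighg2b (4.81), Iglc2 (4.16), Mzb1 (3.54), Ighd (5.59) and Ighg2c (5.37), and in its T cell score (4.41) and mature B cell score (4.36). Wheel PBS mouse 3 did so for Ighg2b (2.46), Iglc2 (5.02), Jchain (1.73), Mzb1 (3.897) and Ighd (6.27), and in its T cell score (4.42) and mature B cell score (4.62). Most of the marks thus came from 2 mice, and their antibody genes and lymphocyte scores were high together.

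Among mice with low lymphocyte scores, control clodronate mouse 3 stood out for Ighg2c (3.25), control clodronate mouse 5 for Iglc2 (1.19), control clodronate mouse 1 for Ighd (1.21) and control PBS mouse 6 for Derl3 (1.08). In these 4 cases every other mouse of the group was at the floor.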

How the results depend on the processing

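Of the counts of genes called, 30 kept within 1.5 times under an alternative and 14 did not. For wheel against control mice after clodronate, where 1 gene was called, the count was 3 with every gene kept. It was 0 when the mean CPM had to reach 5, 0 when other groups were left out of the fit and 0 without the 5 libraries. For clodronate against PBS in wheel mice, with 1 called, it was 3 with a pseudocount of 5, 4 with every gene kept, 0 when the mean CPM had to reach 5, 3 with upper-quartile scaling, 0 when other groups were left out of the fit, 2 without a variance trend and 0 without the 5 libraries. For the interaction, with 0 called, it was 2 with every gene kept. Leaving out 1 mouse gave 0 to 236 genes in wheel against control mice after clodronate, 0 to 38 in clodronate against PBS in control mice, 0 to 51 in wheel mice, and 0 to 0 in the other 2. The cause was not tested.

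With the replicate number as a block, the count went from 1 to 0 in wheel against control mice after clodronate and from 1 to 0 in clodronate against PBS in wheel mice. The numbers were not taken to pair the mice, since not every pair of same-numbered mice had deviations correlated above 0.1. The correlations spanned -0.25 to 0.11 between the PBS groups (1 of 6 above 0.1), -0.12 to 0.52 between the clodronate groups (3 of 5), -0.24 to 0.43 between the control groups (2 of 5) and -0.39 to 0.40 between the wheel groups (4 of 5).

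Of the log2 changes of the 6 genes and Ighm, 259 kept their direction and side of the threshold under an alternative and 5 turned. Iglc2 in wheel against control PBS mice was -0.030 with a pseudocount of 0.1. With the 5 libraries left out, Igha was -0.45 and Ighm -0.16 in wheel against control mice after clodronate, and -0.29 and -0.92 in clodronate against PBS in wheel mice. With 1 mouse left out, 438 kept both, 6 passed the threshold, 16 turned and 2 became 0. In wheel against control PBS mice the ranges were -1.64 to 0.068 for Igkc, -0.64 to 0.24 for Ighg2b, -0.64 to 0.50 for Iglc2, -0.42 to 0.48 for Mzb1 and -0.68 to 0.077 for Ighm. Among the turned values were -0.13 for Iglc2, -0.026 for Mzb1 and 0.032 for Ighm. Igha ranged from -0.15 to 0.65 in wheel against control mice after clodronate, and Ighg2b from -0.76 to 0 and Mzb1 from -0.51 to 0 in clodronate against PBS in control mice, where both groups were at the floor without control PBS mouse 2. The cause was not tested. Reads under the fixed floor of 1 CPM, up to 13 to 20 per gene and library, were lost whatever the depth.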

Other observations

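Outside the 5 libraries, Igkc (1.33 to 66.8 CPM) and Ighm (12.8 to 107 CPM) were above the floor in all 17 mice, beside few mature B cell genes. Of the 13 on that list, 0 to 4 exceeded the floor in each of these mice, with sums of 0 to 8.69 CPM. Bank1, a B cell adaptor protein, did so in 12 of the 17, at up to 4.31 CPM, and Cd79a, a signalling partner of surface antibody, in none. In control clodronate mouse 3, Ighg2c reached 8.51 CPM with Ighg2b at the floor. The source of these transcripts was not tested.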
